A study of Arabidopsis thaliana with 8 samples.

Results

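The SAUR (small auxin-up RNA) genes are a plant family of short genes, many of which are transcribed within minutes of an auxin pulse, and many of which lie side by side on the chromosome. SAUR19-type proteins inhibit PP2C.D phosphatases, which keeps plasma membrane proton pumps phosphorylated and active, and the acidified cell wall then yields to turgor. ARR12 is a B-type response regulator, a transcription factor through which cytokinin changes gene expression, and cytokinin and auxin act against each other in setting the size of the root meristem. The family was taken as all nuclear protein-coding genes with SAUR and a number as symbol or synonym in RefSeq's gene annotation (TAIR10.1), which gave 80 of 27444 genes. Of these, 16 carry the name as current symbol and 64 as synonym. The name SAUR21 stands for 2 loci, AT5G18030 beside SAUR20 and the much longer AT5G01830, and SAUR68 for AT1G29490 and AT1G29510, so loci are given where a name is not enough. Membership rests on these names alone, and protein sequences were not checked.

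ARR12 binding was mapped by anti-GFP ChIP-seq in root meristem tissue of Arabidopsis thaliana. The ARR12-GFP libraries came from seedlings of ecotype Col-0 that carried an ARR12-GFP fusion. The Col-0 control libraries came from the same antibody applied to a control genotype, which the series' design text names Col-0 and the sample titles call GFP. Both genotypes were stratified for 5 days, grown for 3 days at 22 °C in long days, and sampled as 2 biological replicates each, while 4 input libraries are not used here. Which promoter drove the fusion, and whether the native ARR12 gene was intact, is not stated in the labels used here. Each list holds 1 summit per peak called in 1 library: 8137 and 5492 summits on the 5 nuclear chromosomes in ARR12-GFP replicates 1 and 2, and 199 and 251 in Col-0 replicates 1 and 2. Read depth is unknown from these lists. Each summit carries a score from the authors' peak calling, the −log10 of its significance, which is comparable within a list and not between lists. Its percentile within the list is therefore given for the leading sites.

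A gene was counted with a list when a summit lay inside it or within 1500 bp of either end. A reproducible site is a cluster of summits from both ARR12-GFP libraries linked within 200 bp, with no Col-0 summit within 200 bp, and 3503 such sites were found. Because the gene table used here has no strand, a site beyond a gene is placed on its lower-coordinate or higher-coordinate side, and upstream cannot be told from downstream. Site positions are TAIR10 coordinates of the deposited lists.

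SAUR genes were near ARR12-GFP summits about as often as other genes were. In ARR12-GFP replicate 1, 26 of the 80 SAUR genes (32.5%, exact binomial 95% interval 22.4 to 43.9) were counted, against 28.1% of other genes. In ARR12-GFP replicate 2, 16 SAUR genes (20%, 11.9 to 30.4) were counted, against 19.6% of other genes. A reproducible site was found for 13 SAUR genes (16.25%, 8.95 to 26.2), against 14.0% of other genes. Each of these 3 shares of other genes lies inside the interval of the SAUR share, and the intervals cover counting error only. They treat genes as independent, although neighbouring members can share a site. No list test was made, since the family was chosen with results of these data known.

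The Col-0 lists held no summit near a SAUR gene. In Col-0 replicates 1 and 2 the count was 0 of 80 in each, with an exact binomial 95% upper limit of 4.51%, while 0.504% and 0.592% of other genes were counted. The ARR12-GFP libraries averaged 21 ± 7.07 SAUR genes with a summit and the Col-0 libraries 0 ± 0 (SD, n = 2 each). A two-sided exact permutation test of this difference of 21 genes gave p = 0.333, the smallest value that the 6 labellings of 2 against 2 libraries allow. The groups do not overlap, and the Col-0 lists are also far shorter for all genes.

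**Figure D1:**
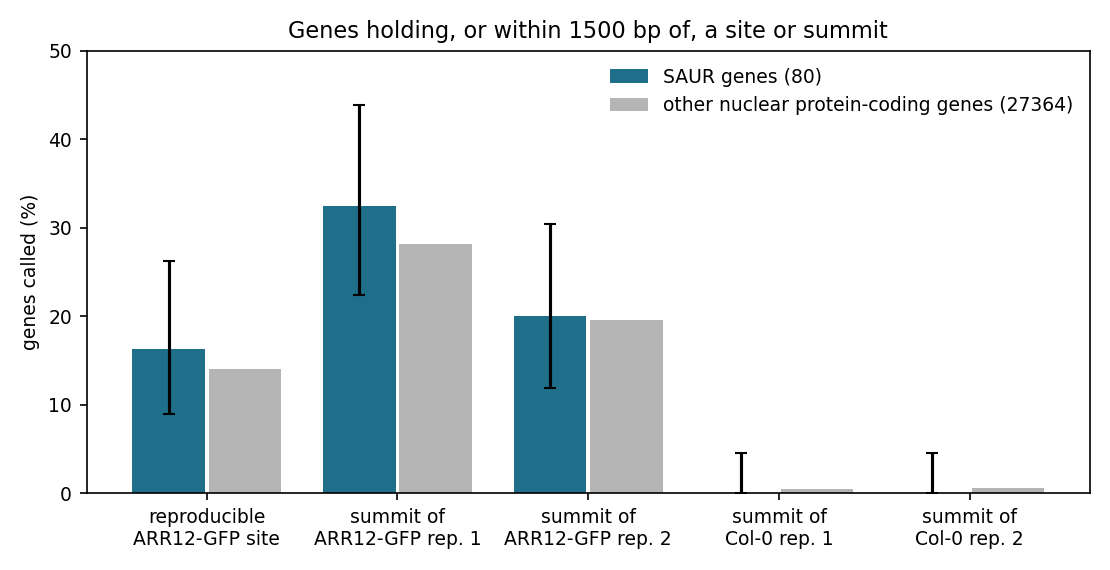
Share of genes (percent, y axis) that hold, or lie within 1500 bp of, a reproducible ARR12-GFP site or a summit of each anti-GFP library, for the 80 SAUR genes (left bar of each pair, with exact binomial 95% intervals) and the 27364 other nuclear protein-coding genes (right bar). The paired bars are close in each ARR12-GFP list, and both Col-0 lists are at 0 for SAUR genes.

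All 80 members are accounted for as follows. The 13 with a reproducible site and 3 others had summits of both ARR12-GFP libraries, 10 had a summit of replicate 1 only, 0 had a summit of replicate 2 only, and 54 had neither. The shares with replicate 1 only were 12.5% of SAUR genes and 11.3% of other genes, those with replicate 2 only were 0% and 2.78%, and those with neither were 67.5% and 69.1%.

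The 15 distinct sites behind the 13 SAUR genes all lay outside them. No SAUR gene held a reproducible site within its own extent, whereas 966 of 27364 other genes (3.53%) did, and among other genes with a site 25.2% had one inside. SAUR genes are short, with a median length of 815 bp (396 to 2865 bp) against 2081 bp for other genes. Whether length plays a part in the lack of sites inside was not tested. Single libraries did place summits inside SAUR genes, 5 in replicate 1 and 2 in replicate 2. In both replicates AT5G01830 was among the genes that held them. Over the searched regions, which cover 270.8 kb for SAUR genes and 93960 kb for other genes, there were 5.54 sites per 100 kb near SAUR genes and 3.17 near other genes. These densities were not adjusted for the larger part that flanks take up around a short gene. Without the array of chromosome 4 described below, left out after the data were seen, 11 sites in 251.3 kb gave 4.38 per 100 kb.

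Gene length was considered in a pair of ways. Among the 18811 other genes within the length range of the family (396 to 2865 bp), 13.6% had a reproducible site. The difference from the SAUR share was then 2.68 percentage points, against 2.27 with all 27364 other genes. This range is a loose match for length, since it keeps most other genes and AT5G01830 sets its upper end. Among genes between the length quartiles of the family (663 to 960 bp), an alternative added after the data were seen, 7 of 40 SAUR genes (17.5%) and 184 of 1893 other genes (9.72%) had a reproducible site. Within the family, the median length was 904 bp with a site and 812 bp without one. The part of length in the counts was not tested.

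**Figure D2:**
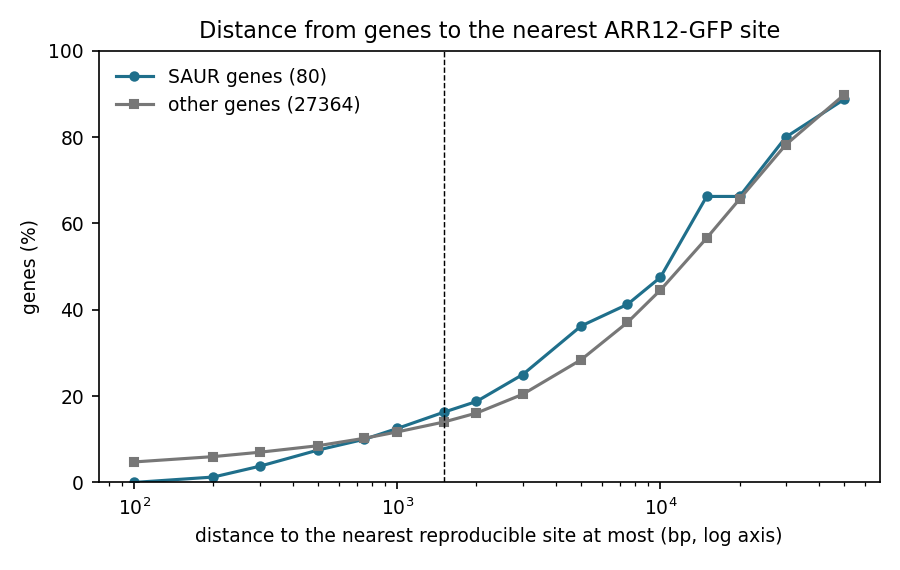
Cumulative share of genes (percent, y axis) whose nearest reproducible ARR12-GFP site lies at or below a given distance from the gene (bp, log axis), for 80 SAUR genes (circles) and 27364 other genes (squares), with 1500 bp dashed. SAUR genes lie below other genes at the plotted distances up to 750 bp (7.5% against 8.51% at 500 bp, 10% against 10.2% at 750 bp). They lie above other genes at 3000 bp (25% against 20.4%) and below them again at 50000 bp (88.75% against 89.8%).

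The nearest site lay at a median distance of 10180 bp from SAUR genes and 12104 bp from other genes. At 1500 bp the boundary passed close to some members. SAUR50 was the member just inside, with its site at 1294 bp, and SAUR13 (AT4G38825) was just outside at 1503 bp, followed by SAUR41 (AT1G16510) at 1653 bp. SAUR41 is known for roles in root meristem patterning and cell expansion.

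The 3 highest-ranking sites of the family stood at SAUR genes outside tandem arrays. SAUR72 (AT3G12830), a relative of SAUR41, had a site at position 4077967 of chromosome 3, 684 bp from its lower-coordinate end. Its summits scored 40.2 in ARR12-GFP replicate 1 and 26.7 in replicate 2, percentiles 94.3 and 95.9 of their lists, and lay 4 bp apart. It was the only one of the 15 sites at percentile 90 or above in both lists, and no other gene shared it.

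SAUR35 (AT4G12410) had a site at 7344702 of chromosome 4, 971 bp beyond its higher-coordinate end, with scores of 45.4 and 18.5 in replicates 1 and 2 (percentiles 95.9 and 89.1). SAUR69 (AT5G10990) was flanked by 3 sites on chromosome 5, at 3475571, 3476537 and 3478670. The middle one lay 283 bp from the lower-coordinate end and scored 39.0 and 15.8, and the outer ones scored 11.2 and 4.53, and 30.1 and 9.01. The site at 3478670 lay 947 bp beyond SAUR69 but 2 bp from the next gene, AT5G11000.

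SAUR59 (AT3G60690) had a site at 22434632 of chromosome 3, 232 bp from its lower-coordinate end, with scores of 29.5 and 9.40. SAUR43 (AT5G42410) had one at 16964342 of chromosome 5, 308 bp from its lower-coordinate end, with scores of 13.4 and 9.76. SAUR51 (AT1G75580) had one at 28379467 of chromosome 1, 1157 bp beyond its higher-coordinate end, with scores of 23.6 and 7.72. These sites stood near no other protein-coding gene, as was the case for 8 of the 15 sites.

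Other SAUR genes shared their site with a neighbour outside the family. The site of SAUR37 (AT4G31320) at 15192910 of chromosome 4, with scores of 32.1 and 6.98, lay 799 bp from SAUR37 and 314 bp from AT4G31310. The site of SAUR44 (AT5G03310) at 800943 of chromosome 5, with scores of 27.3 and 7.99, lay 1237 bp from SAUR44, 1133 bp from ADK2, which encodes an adenosine kinase, and 1004 bp from AT5G03320. SAUR36 (AT2G45210, also SAG201), known for promoting leaf senescence, had the site with the lowest mean percentile over both libraries, 17.3, at 18641071 of chromosome 2 and 492 bp from the gene. Its scores of 5.16 and 5.01 stood at percentiles 12.9 and 21.7, and the site also lay 1032 bp from GOS12, a Golgi SNARE gene. In all, 5 of the 15 sites were shared with a gene outside the family, and 12 had a SAUR gene as their nearest protein-coding gene.

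**Figure D3:**
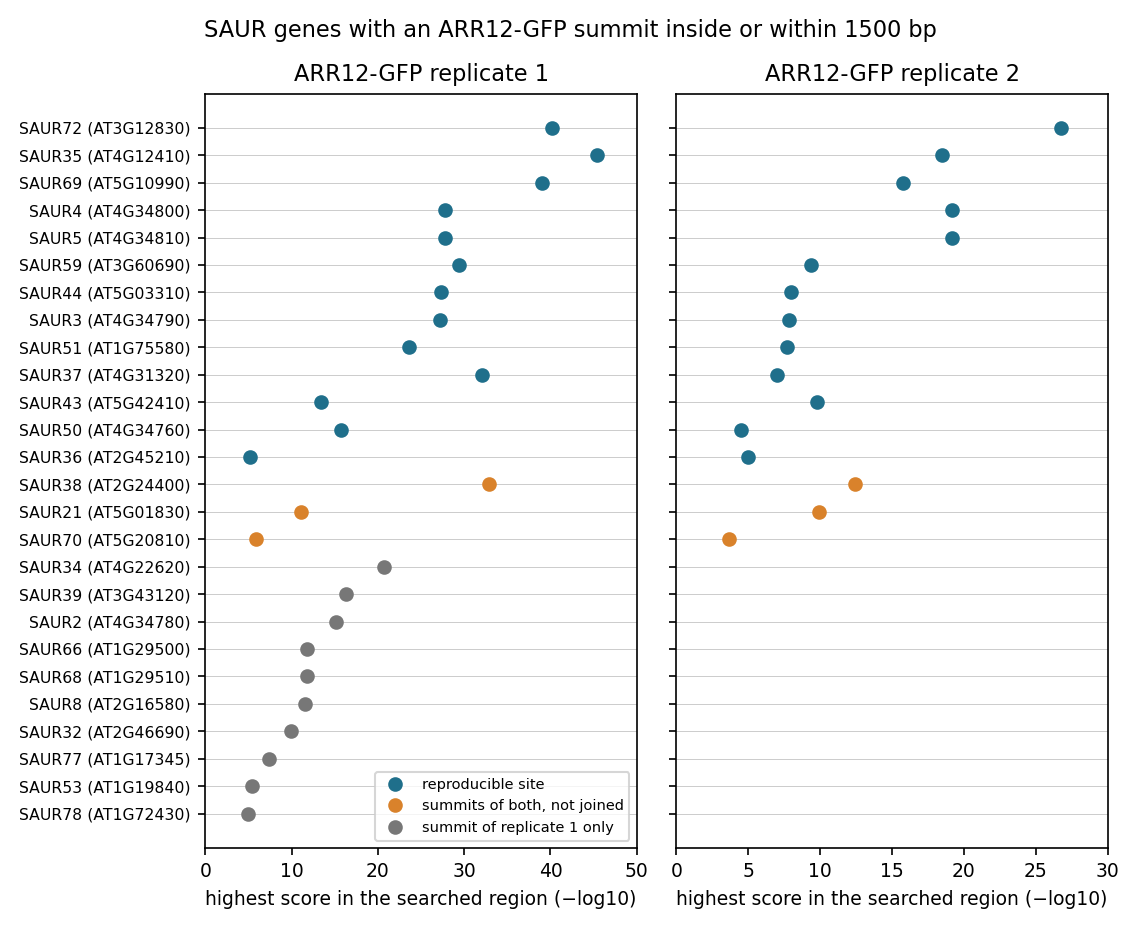
Highest summit score (−log10, x axis, a separate axis per library) within the searched region of each SAUR gene with a summit of ARR12-GFP replicate 1 (left) or replicate 2 (right). Genes are ordered by class and rank: 13 with a reproducible site, 3 with summits of both libraries that were not joined, and 10 with a summit of replicate 1 only, which have no point on the right.

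Ranks of the SAUR sites covered most of the range of the lists. Their mean percentile over both libraries ran from 17.3 to 95.1 with a median of 69.9, against a median of 60.7 for the 2978 other sites near genes. Of the 15 sites, 10 were at or above the median of both lists. The summits of both libraries were 4 to 144 bp apart with a median of 38 bp, against 53 bp at other sites near genes. These are descriptions, with no test.

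Tandem arrays were defined as runs of SAUR genes with at most 1 other protein-coding gene between neighbours. There were 11 arrays of 2 to 7 genes, with 36 genes in all, and 44 SAUR genes lay outside arrays. A reproducible site was found for 5 of the 36 array genes (13.9%) and 8 of the 44 others (18.2%), close to the 14.0% of other genes. The array genes with a site were unevenly spread: 4 of the 5 were in 1 array of chromosome 4, the remaining one was SAUR51, and 9 arrays had none. The array of chromosome 4 was set apart because it had the most genes with a site. In the other 10 arrays, 1 of 29 genes (3.45%) had a site, a share lowered by that choice.

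The array of chromosome 4 runs over 22.4 kb from SAUR49 (AT4G34750) through SAUR50 and SAUR1 to SAUR5 (AT4G34810) and is the longest by number, with 7 genes. It held 4 distinct sites, and 3 of them stood in the gaps between SAUR3, SAUR4 and SAUR5. The site at 16595701, between SAUR3 and SAUR4, scored 19.9 in replicate 1 and 3.21 in replicate 2, where it was at percentile 2.61. The site at 16596500, 140 bp from SAUR4, scored 27.2 and 7.80. The site at 16598548, between SAUR4 and SAUR5 and 410 bp from SAUR5, scored 27.8 and 19.1, and its summits lay 4 bp apart.

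Neighbouring members thus count the same sites: SAUR4 (AT4G34800) had all 3 of these in its searched region, SAUR3 (AT4G34790) had 2 and SAUR5 had 1. The site nearest SAUR5 was also within 1500 bp of MRL1, which encodes a pentatricopeptide repeat protein. The fourth site, at 16580889, lay 1294 bp from SAUR50 (AT4G34760), known for cotyledon opening in light, with scores of 9.99 and 4.48. Replicate 1 also had a summit of score 15.7 inside SAUR50 without a replicate 2 summit. SAUR49 and SAUR1 had no summit of either library in their searched regions. When this array was left out, an alternative chosen after the data were seen, 9 of 73 SAUR genes (12.3%) had a site, below the 14.0% of other genes.

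**Figure D4:**
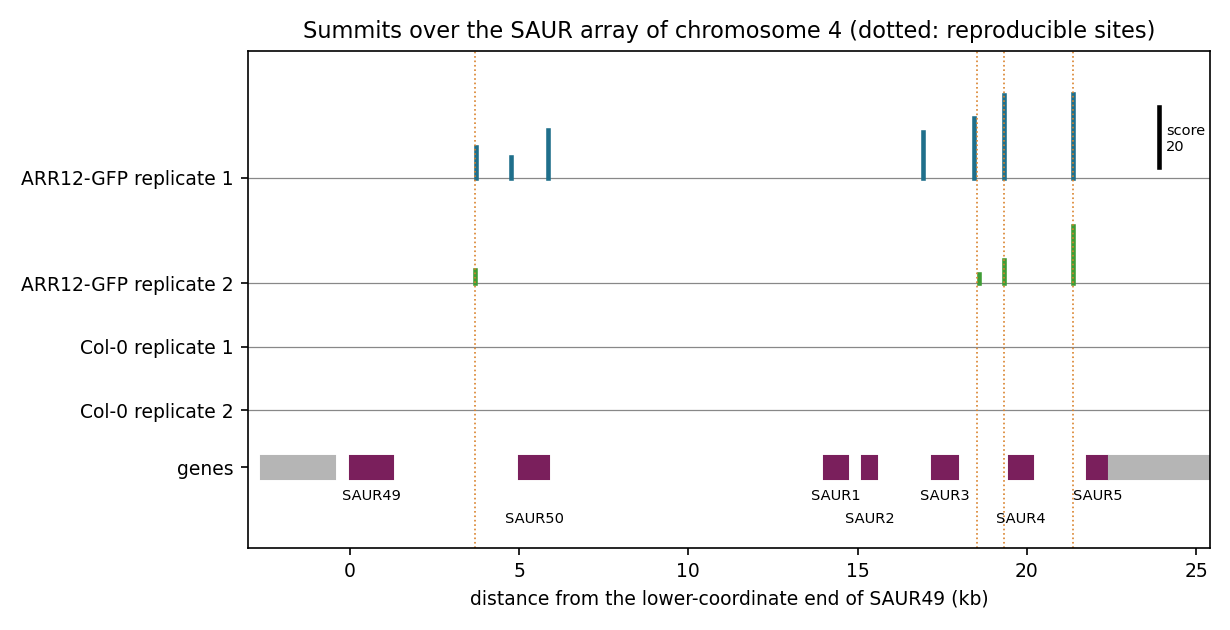
Summits of the 4 anti-GFP libraries over the SAUR array of chromosome 4. The x axis is the distance in kb from the lower-coordinate end of SAUR49, bar height is the score (−log10; scale bar of 20), dark boxes are SAUR genes, grey boxes other protein-coding genes, and dotted lines the 4 reproducible sites. Of these, 3 stand between SAUR3 and SAUR5, and the Col-0 lanes are empty.

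The arrays best known from growth studies had no reproducible site. The SAUR19 to SAUR24 genes, which promote cell expansion when overexpressed, lie in the arrays of SAUR19 (AT5G18010) to SAUR21 (AT5G18030) and SAUR22 (AT5G18050) to SAUR23 (AT5G18060), with SAUR24 (AT5G18080) nearby. None of the 6 had a summit of either ARR12-GFP library within 1500 bp, and the nearest site to SAUR19 lay at 23269 bp. The SAUR61 to SAUR68 group with SAUR75, which includes the hypocotyl and stamen filament growth gene SAUR63, held 0 of 9 genes with a site. SAUR63 (AT1G29440) lay 10051 bp from its nearest site, and the array of SAUR61 (AT1G29420) to SAUR65 (AT1G29460) had no summit at all. In the array from AT1G29490 to AT1G29510, replicate 1 had 1 summit of score 11.8 between SAUR66 (AT1G29500) and AT1G29510, and replicate 2 had none. With 6 and 9 genes, these groups were not set against the 14.0% of other genes by a test.

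The arrays of SAUR7 (AT2G21200) to SAUR12 (AT2G21220), SAUR28 (AT3G03830) to SAUR26 (AT3G03850) and SAUR14 (AT4G38840) to SAUR16 (AT4G38860) were also without a summit. The array of SAUR14 to SAUR16 includes SAUR15 (AT4G38850), the SAUR-AC1 gene known from lateral root formation, whose nearest site lay at 6034 bp. In the array of SAUR51 and SAUR52 (AT1G75590), SAUR52 had no summit. In the array of SAUR54 (AT1G19830) and SAUR53 (AT1G19840), SAUR53 had a replicate 1 summit 511 bp away that scored 5.39.

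**Figure D5:**
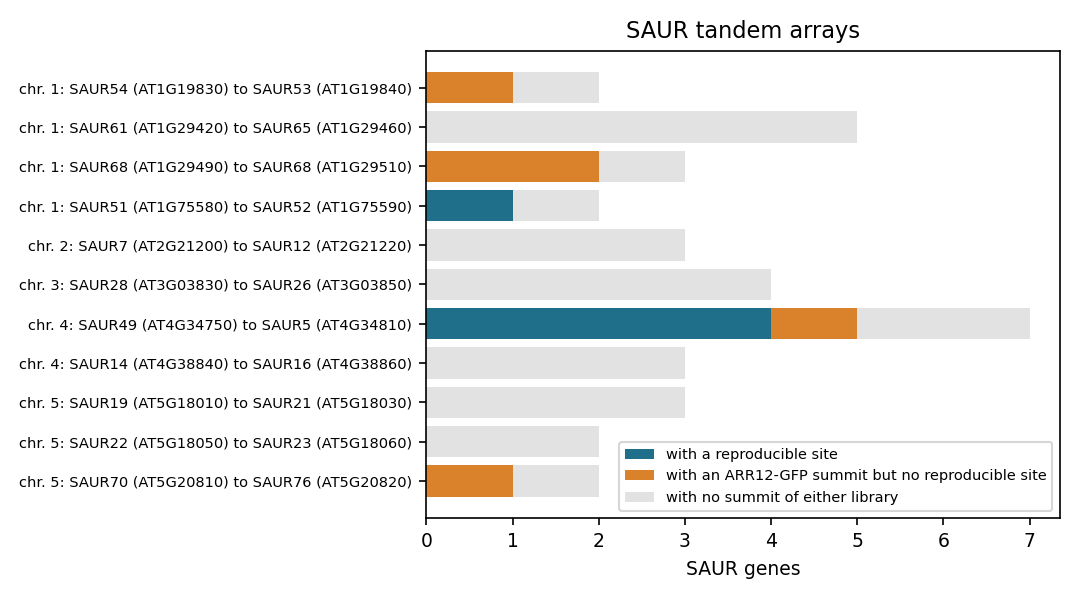
Number of SAUR genes (x axis) in each of the 11 tandem arrays, split into genes with a reproducible site, genes with an ARR12-GFP summit but no reproducible site, and genes with no summit of either ARR12-GFP library. The array of SAUR49 to SAUR5 holds 4 of the 5 array genes with a site.

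By chromosome, 1 of 20 SAUR genes on chromosome 1 had a site, 1 of 12 on chromosome 2, 2 of 14 on chromosome 3, 6 of 18 on chromosome 4 and 3 of 16 on chromosome 5, while the share of other genes with a site was 13.6% to 14.3% on each chromosome. Of the 6 on chromosome 4, 4 were in the array of SAUR49 to SAUR5, and no test was made. Of the SAUR40, SAUR41, SAUR71 and SAUR72 group, SAUR72 alone had a site within 1500 bp. Of SAUR76 (AT5G20820), SAUR77 (AT1G17345) and SAUR78 (AT1G72430), none had one. Replicate 1 had summits of score 7.41 at 59 bp from SAUR77 and of 4.93 inside SAUR78, while SAUR76 had no summit and lay 11638 bp from its nearest site.

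For 3 SAUR genes, named after their values were seen, both ARR12-GFP libraries had summits that were not joined. SAUR38 (AT2G24400) had a replicate 1 summit of score 32.9 at 301 bp and a replicate 2 summit of score 12.5 at 29 bp, 272 bp apart. SAUR70 (AT5G20810) held summits of 5.84 and 3.67 that lay 352 bp apart inside the gene. AT5G01830 held summits of 11.1 and 7.06 that lay 217 bp apart. All 3 distances exceed 200 bp, and with summits matched within 500 bp 16 SAUR genes (20%) had a site, against 15.9% of other genes. AT5G01830, a member by its name, is the longest (2865 bp) and is counted in both single ARR12-GFP libraries. Whether it encodes a SAUR protein was not checked. With summits joined within 200 bp and AT5G01830 left out, 13 of 79 SAUR genes (16.5%) had a site.

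The 10 SAUR genes with a summit of replicate 1 only were led by SAUR34 (AT4G22620), with a score of 20.7 at 1078 bp. They were followed by SAUR39 (AT3G43120), with 16.3 at 1433 bp, SAUR2 (AT4G34780), with 15.2 at 1353 bp, and SAUR66 and AT1G29510, which share the summit of 11.8. SAUR32 (AT2G46690), known for effects on the apical hook, had its summit 1318 bp away, with a score of 9.90, and its nearest reproducible site at 9128 bp. The scores of all 10 ran from 4.93 to 20.7. Of the replicate 1 summits near SAUR genes, 15 of 35 (42.9%) had a replicate 2 summit within 200 bp, against 44.3% of those near other genes. Of the replicate 2 summits near SAUR genes, 15 of 20 (75%) had a replicate 1 summit, against 63.9% near other genes.

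Genes that act after SAUR proteins were counted from 2 lists, beside the 14.0% of other genes with a site given above. Of 9 PP2C.D phosphatase loci, 5 of which the gene table names APD, 2 had a reproducible site (22.2%). The site of APD5 (AT4G33920), 617 bp away, scored 16.7 and 8.30, and the site of AT3G17090, 1414 bp away, scored 7.35 and 5.62. Of 11 AHA proton pump genes, 2 had a site (18.2%): AHA1 (AT2G18960) held one with scores of 12.3 and 4.61, and AHA2 (AT4G30190) had 2, the higher-ranking at 141 bp with scores of 24.8 and 3.82. Of the other early auxin-response families, 9 of 24 genes with the symbol IAA and a number (37.5%) had a site. Taken likewise by current symbol only, 1 of 16 SAUR genes (6.25%) had one. For GH3 genes the counts were 1 of 5 by symbol (20%) and 4 of 9 by symbol or synonym (44.4%). The counts of 2 of 9 phosphatase and 2 of 11 pump genes lie near the 14.0% of other genes. The shares of IAA genes and of GH3 genes by symbol or synonym lie above it, on few genes. The differences between these families and the SAUR genes or other genes were not tested.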

How the data were processed

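Summit lists of 4 anti-GFP ChIP-seq libraries, 2 per genotype, were used. Per the submitters' processing notes, MACS2 2.1.0, Bowtie 1.1.1, FastQC 0.11.2, SAMtools and build TAIR10 were used, and settings are not given here. The score that the authors deposited with each summit is the −log10 of its p-value or q-value, without saying which. Gene extents came from the RefSeq table of TAIR10.1, so distances and no gene coordinates are given, and no sequence was used. To check the table against the lists, replicate 1 summits were moved along the chromosomes: 29.2% lay inside protein-coding genes as deposited, and 57.9% and 57.4% after a move of 2000 bp down or up. The deposited lists are 1 per library.

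ARR12-GFP summits were joined by single linkage (200 bp), placed at the midpoint of the best summit of each library, and removed within 200 bp of a Col-0 summit, which took away 71 of 3574 sites. The joining and counting code was tested on simulated lists. Shares carry exact binomial 95% intervals for counting error. Libraries were compared by an exact permutation test. Whether equal replicate numbers mark a shared batch is not given in the labels.

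The members and lists were chosen with earlier results of these data known. The genes named are all members with a site, the 4 leading members with a summit of 1 library, SAUR15, SAUR19, SAUR32, SAUR36, SAUR41, SAUR63 and SAUR76, the ends of each array, the members on either side of 1500 bp, and pathway genes with a site. Further members were named after their values were seen. The code ran on pandas 2.3.3, SciPy 1.17.1, NumPy 2.4.6, matplotlib 3.10.9 and Python 3.11.15.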

Additional observations from a re-analysis of the deposited data

How the results depend on the processing

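Whether the SAUR share lay above or below that of other genes was not settled by these lists. For reproducible sites the difference in shares was 2.27 percentage points and kept its sign under 16 of 20 alternatives. It was -3.53 with sites inside the gene only (0 SAUR genes), -1.01 with 500 bp searched (6 genes), -7.74 for the 16 members by current symbol (1 gene) and -1.65 without the array of SAUR49 to SAUR5. It was larger with summits at or above the median score (5.06), 3000 bp searched (4.58) and the nearest gene only (4.31). Summits matched within 500 bp (4.10) and 100 bp (3.81) also gave larger differences. The difference was 4.2 with each array as 1 locus, which has a larger searched region than the single genes it was set against. The difference was 7.78 between the length quartiles, and both of these alternatives were added after the data were seen. For replicate 1 summits (4.39) it was -1.49 inside the gene only (5 genes) and -9.38 by current symbol (3 genes), but 10.01 with 3000 bp searched, 9.58 at or above the median score and 8.03 with the nearest gene only. For replicate 2 summits (0.38) it was -3.82 inside the gene only (2 genes), -1.46 with 500 bp searched (9 genes), -0.53 with 1000 bp searched and -7.13 by current symbol (2 genes), but 4.23 with the nearest gene only, 4.10 at or above the median score and 2.46 with 3000 bp searched. Counts moved without a change of sign with 3000 bp searched (20 genes with a reproducible site), with 500 bp searched for replicate 1 (15 genes), and between the length quartiles (7 of 40 genes). Fewer bases searched or fewer members lower a count by construction, and the cause of the changes of sign was not tested. Alternatives that changed only the use of the Col-0 lists could not move the SAUR count of 13. No Col-0 summit lay closer to a SAUR gene than 2529 bp.

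Leaving out a library gave 13 to 26 SAUR genes with a site and differences of 0.613 to 4.70 points. Without ARR12-GFP replicate 2 the summits of replicate 1 alone gave the 26. The difference of 21 genes between ARR12-GFP and Col-0 libraries was 16 without ARR12-GFP replicate 1 and 26 without ARR12-GFP replicate 2, and kept its direction under the other alternatives tried. With up to 1500 bp searched both Col-0 counts were 0, so the difference could not turn negative there. With the replicate number as a block the difference was 21 and the exact sign-flip test gave p = 0.5, the smallest that 2 pairs allow. With neighbours at most 10000 bp apart there were 9 arrays. The unknown read depth and 2 libraries per genotype limit all counts.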

Other observations

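A summit present in all 4 anti-GFP libraries lay beyond the array of SAUR28 to SAUR26 on chromosome 3. It stood 2519 and 2528 bp from SAUR26 (AT3G03850) in ARR12-GFP replicates 1 and 2, and 2534 and 2529 bp from it in Col-0 replicates 1 and 2. It was the nearest Col-0 summit to any SAUR gene. It lay outside the 1500 bp searched, so it enters no count made at that distance. The reproducible sites also leave it out, since Col-0 summits lie beside it. Counts of single libraries did not leave out Col-0 summits, so those with 3000 bp searched include it at SAUR26.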
